A study of Mus musculus with 8 samples.

Results

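Sox2, Pax6, Nes, Vim, Notch1, Hes1, Hes5, Eomes, Sox11 and Dcx mark neural progenitors and the young neurons that arise from them. These 10 genes were taken by name from the 55536 genes of a count table of adult mouse frontal cortex, and each had 1 row under its GENCODE M21 symbol. The table holds 8 RNA-seq libraries of 8-week-old mice, 4 of wild-type (WT) animals and 4 of HAR123-KO animals. The HAR123-KO mice carry a CRISPR-Cas9 deletion in the germline that removes HAR123, an intronic enhancer of the Smg6 locus. Both genotypes were of a line backcrossed to C57BL/6J, WT animals were littermates, and no transgene or treatment is named. The deletion is present in every cell throughout life, so adult values cannot separate an effect in the embryo from an effect in the adult. The sex of the animals and the number of founders were not given in the sources used here. The authors reported a part for HAR123 in forming neural progenitors from human embryonic stem cells in culture. Whether it has this part in vivo they left to future work. The question asked of these genes was whether the genotypes differ in the adult cortex.

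In the embryonic cortex, radial glia divide along the ventricle, hold the transcription factors Sox2 and Pax6 and the intermediate filaments nestin and vimentin, and give rise to neurons either directly or through Eomes-positive intermediate progenitors. Notch receptors on radial glia are cut when a neighbouring cell presents a ligand, the freed receptor domain joins Rbpj on DNA, and Hes1 and Hes5 are switched on and hold back neuronal genes. In the adult, few cells of the cortex divide other than oligodendrocyte progenitors, but Sox2, Vim, Notch1 and Hes5 persist in astrocytes, oligodendrocyte progenitors or endothelial cells, and Dcx is kept by some cortical neurons. The counts here come from whole tissue, in which fewer cells of a type and less RNA per cell cannot be told apart.

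Total counts per library were 13528251 to 17051001, of which nuclear protein-coding genes other than Lars2 held 2786320 to 3732172, so the depth that bears on the 10 genes is well under the totals. Libraries of the same genotype differed by more than counting noise, with a chi-square per degree of freedom of 1.21 to 1.30 over 12 pairs, against 1.58 to 1.72 over the 16 pairs of unlike genotype. No pair was close enough to be one library deposited again. The labels do not say that each library came from its own animal, so p-values measure the spread between these samples, which may be technical. Smg6, which hosts the deleted enhancer, had 209 ± 7.78 (WT) and 218 ± 15.4 (HAR123-KO) normalized counts (counts divided by a library's size factor; SD, n = 4 each). Its exons lie outside the deletion, and its counts do not check the genotype.

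None of the 10 genes passed the limits used here, an adjusted p below 0.05 together with a log2 fold change above 0.5 in size. Mean levels in HAR123-KO cortex were 79.2% to 94.7% of WT for the progenitor genes Sox2, Pax6, Nes, Vim, Notch1, Hes1 and Hes5, and 106% and 103% of WT for the young neuron genes Sox11 and Dcx. In the Wald test of DESeq2, 8 of the 10 genes received an adjusted p, and Hes1 and Eomes fell under its filter at a mean of 17.6 normalized counts. The 8 genes had a median log2 fold change of -0.15 (range -0.34 to 0.08), with 6 fitted lower and 2 higher, against a median of -0.00 over the 12758 genes tested, of which 6461 were lower and 6297 higher. With 0 of 8 past the limits, the background was 38 of 12758 genes (0.298%), and 215 genes (1.69%) had an adjusted p under 0.05 whatever their fold. An unadjusted p under 0.05 was reached by 1 of 8, Notch1, against 8.78% of all genes tested in either direction and 4.27% in the lower direction. All 4 HAR123-KO libraries lay below all 4 WT libraries for 1 of 8, Sox2, against 3.65% of all genes, and no member had all HAR123-KO libraries above WT, against 4.02%. One gene of 8 is the smallest share above 0 that the list could show, and edgeR and limma-voom also put 0 of the members past the limits.

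**Figure D1:**
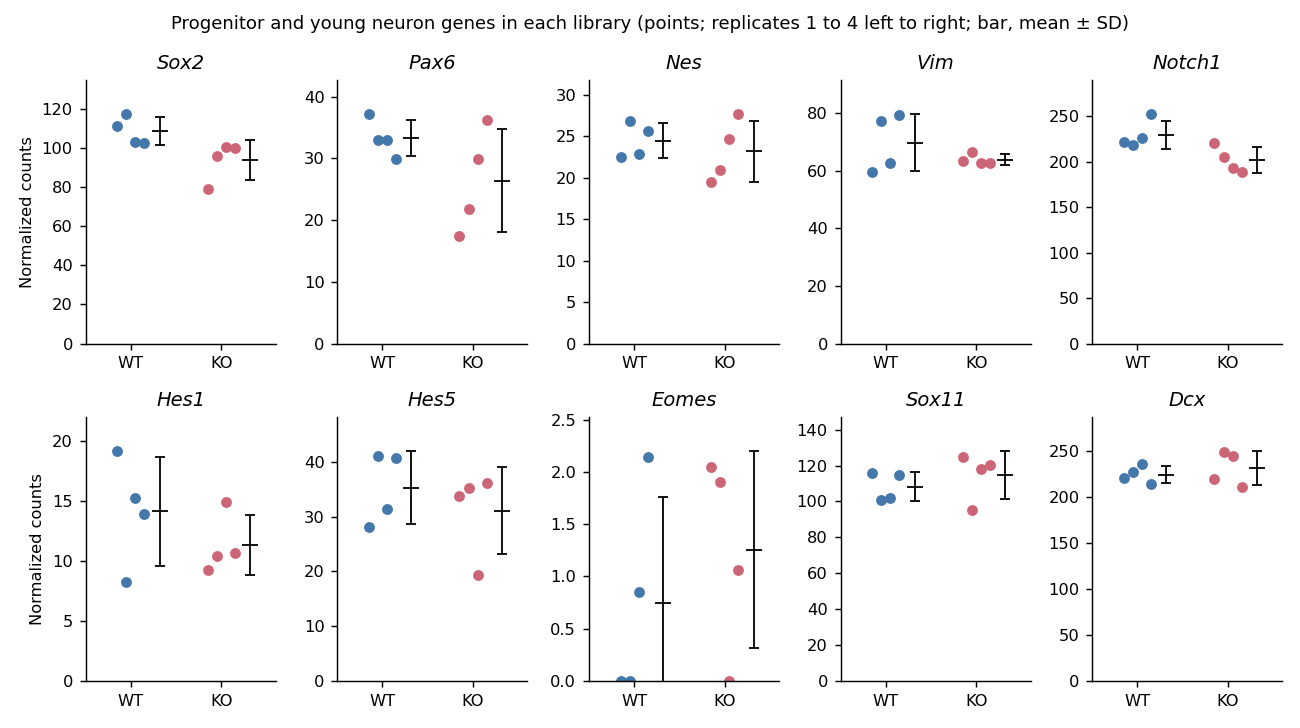
Normalized counts (vertical axes, each from 0) of the 10 genes in the 4 WT and the 4 HAR123-KO (KO) libraries, with 1 point per library and a bar for the mean ± SD. The points of the genotypes separate only for Sox2, where the highest HAR123-KO library (100.4) is just under the lowest WT library (102.7), and the lower end of the Eomes bar in WT is cut at 0.

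Sox2, a transcription factor that keeps stem cells and radial glia undifferentiated, is the single-exon gene ENSMUSG00000074637 at chr3:34650405-34652461 on the plus strand (GRCm38). Its normalized counts were 111.5, 117.4, 103.4 and 102.7 in WT replicates 1 to 4 and 78.8, 96.04, 100.4 and 100.0 in HAR123-KO replicates 1 to 4. Every HAR123-KO library was below every WT library, but replicates 2 to 4 were close to the lowest WT value and replicate 1 was well below the rest. The means were 108.7 ± 7.002 and 93.8 ± 10.2 (SD, n = 4 each), and the log2 fold change of -0.21 ± 0.13 (SE) had an adjusted p of 0.718 in DESeq2. Counting alone would give an SD of 10.5 in WT libraries and 9.59 in HAR123-KO libraries, no smaller than the WT spread and close to the HAR123-KO spread. The 95% interval ran from 0.725 to 1.03 of the WT level, and without HAR123-KO replicate 1 the log2 fold change was -0.14. Sox2 lies inside the long noncoding RNA gene Sox2ot on the same strand but shares 0 exon bases with it, and Sox2ot had mean normalized counts of 101.7 (WT) and 107.0 (HAR123-KO).

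Pax6, the homeobox factor of cortical radial glia that sets dorsal identity and primes neurogenesis, is ENSMUSG00000027168 at chr2:105668900-105697364, plus strand. Counts were 37.2, 32.9, 33.04 and 29.95 in WT and 17.4, 21.9, 29.93 and 36.2 in HAR123-KO libraries. The WT values were close together and the HAR123-KO values were spread widely, replicates 1 and 2 well below WT, replicate 3 at the lowest WT value and replicate 4 near the highest. The means of 33.3 ± 2.96 and 26.3 ± 8.35 gave the lowest fitted log2 fold change of the 8 tested members, -0.34 ± 0.25, with an adjusted p of 0.798 (DESeq2) and a 95% interval from 0.566 to 1.11 of WT. The fold change was -0.19 without HAR123-KO replicate 1 and -0.52 without HAR123-KO replicate 4. A difference of the size fitted was not detectable for Pax6 at this depth and spread.

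Nes encodes nestin, the filament protein by which neural stem cells are usually recognised, and is ENSMUSG00000004891 at chr3:87971078-87980451, plus strand. WT libraries had 22.5, 26.8, 22.9 and 25.7 normalized counts and HAR123-KO libraries 19.5, 20.9, 24.7 and 27.7. The genotypes overlapped, with the lowest and the highest of the 8 values both in HAR123-KO. The log2 fold change was -0.08 ± 0.27 (adjusted p = 0.990, DESeq2), and it ran from -0.0049 without HAR123-KO replicate 1 to -0.17 without HAR123-KO replicate 4.

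Vim encodes vimentin, the filament partner of nestin in radial glia, which in the adult brain is also found in endothelial cells, ependyma and reactive astrocytes. The gene, ENSMUSG00000026728, lies at chr2:13573927-13582826 on the plus strand. WT libraries had 59.7, 77.2, 62.7 and 79.2 normalized counts and HAR123-KO libraries 63.5, 66.6, 62.5 and 62.7. Here WT replicates 2 and 4 were high, and the other 2 WT libraries were at or below the level of the HAR123-KO libraries, which lay close together. The log2 fold change was -0.12 ± 0.16 (adjusted p = 0.944, DESeq2), with a 95% interval from 0.738 to 1.14 of WT, and it was -0.19 without WT replicate 1 and -0.06 without WT replicate 4.

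The Notch group holds the receptor Notch1 and its effectors Hes1 and Hes5. Notch1, ENSMUSG00000026923, lies at chr2:26457903-26516663 on the minus strand. Its normalized counts were 221.8, 218.3, 226.2 and 252.5 in WT and 221.2, 205.4, 192.8 and 189.3 in HAR123-KO libraries. Of the HAR123-KO libraries 3 lay below all WT libraries, and replicate 1 fell among them. The means were 229.7 ± 15.5 and 202 ± 14.4, and the log2 fold change of -0.18 ± 0.09 was the only one of the 10 whose 95% interval, 0.779 to 0.995 of WT, left out no change. Its unadjusted p of 0.0408 in DESeq2 became 0.520 after adjustment over all genes tested (edgeR 0.0159 and 0.236). Leaving out WT replicate 3 or 4, or HAR123-KO replicate 2, 3 or 4, took the unadjusted p to 0.05 or above. Noncoding genes on the opposite strand, 0610009E02Rik and Gm13568, cover 7.50% and 2.91% of the Notch1 exon bases, and had means of 3.25 and 0.482 normalized counts.

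Hes1 and Hes5 are basic helix-loop-helix repressors that Notch switches on. Hes5 is shown with its promoter because RBPJ, through which all Notch receptors act, is known to bind the letters GTGGGAA. In the 300 bases from 250 before to 50 after each RefSeq start site (GRCm38.p6), GTGGGAA or its reverse complement TTCCCAC was present in 6.38% of 32851 windows, and on both strands in 33 windows (0.1005%). Windows were given for 9 of the 10 genes (11 windows), and the window of Hes5 was the only 1 of these with the motif. Among 4 further Hes, Hey and Nrarp genes with a window, Hes7 and Hey2 held it, Hey2 on both strands. The windows of Hes5 at chr4:154960673-154960972 (plus strand) and of Hey2 at chr10:30842734-30843033 (minus strand) are printed 5′ to 3′ with the motif in capitals.
Hes5: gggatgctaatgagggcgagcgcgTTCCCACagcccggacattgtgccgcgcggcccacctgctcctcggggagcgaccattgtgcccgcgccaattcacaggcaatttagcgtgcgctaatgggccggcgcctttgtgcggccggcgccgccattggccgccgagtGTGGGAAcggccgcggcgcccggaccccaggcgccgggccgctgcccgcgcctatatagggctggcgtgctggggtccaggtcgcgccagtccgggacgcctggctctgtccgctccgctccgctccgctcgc
Hey2: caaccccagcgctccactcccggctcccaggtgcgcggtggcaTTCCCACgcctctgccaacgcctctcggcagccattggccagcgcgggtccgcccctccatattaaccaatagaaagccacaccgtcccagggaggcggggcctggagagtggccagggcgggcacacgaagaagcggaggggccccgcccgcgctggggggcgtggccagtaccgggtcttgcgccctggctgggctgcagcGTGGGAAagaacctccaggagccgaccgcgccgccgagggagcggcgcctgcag
In Hes5 the sites stand 136 bases apart, and in Hey2 196 bases. In both windows TTCCCAC comes before GTGGGAA, so the sites point away from each other, unlike the close, facing pairs known from Notch targets. These are matches of letters, and no binding was measured.

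Hes5, ENSMUSG00000048001 at chr4:154960923-154962371 (plus strand), had 28.1, 41.2, 31.4 and 40.7 normalized counts in WT libraries and 33.8, 35.2, 19.4 and 36.2 in HAR123-KO libraries. Apart from HAR123-KO replicate 3, the HAR123-KO values fell inside the WT range. The log2 fold change was -0.19 ± 0.24 (adjusted p = 0.934, DESeq2), with a 95% interval from 0.634 to 1.21 of WT, and it was -0.0099 without HAR123-KO replicate 3. The opposite-strand gene Gm20421 covers 31.8% of the Hes5 exon bases and had a mean of 0.488 counts. Use of strand in counting was not given, so whether this overlap lowered the Hes5 counts cannot be told.

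Hes1, ENSMUSG00000022528 at chr16:30064384-30067796 (plus strand), was sparse, with 19.1, 8.24, 15.3 and 13.9 normalized counts in WT libraries and 9.21, 10.5, 14.97 and 10.6 in HAR123-KO libraries. The genotypes overlapped and WT replicate 2 was the lowest of all 8. Its log2 fold change of -0.31 ± 0.38 spans 0.485 to 1.35 of the WT level, and no adjusted p was given at this depth. It was -0.14 without WT replicate 1 and -0.49 without WT replicate 2. Hey2, whose promoter also carries sites on both strands, had 11.3, 14.4, 15.3 and 10.7 counts in WT and 12.3, 12.4, 22.0 and 10.6 in HAR123-KO libraries, a log2 fold change of 0.16 ± 0.36 with no adjusted p.

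Eomes (Tbr2), the factor that defines intermediate progenitors, was barely detected. The gene ENSMUSG00000032446, at chr9:118478212-118486132 on the plus strand, had 0, 0, 1 and 2 reads in WT and 2, 2, 0 and 1 reads in HAR123-KO libraries. All 8 values were below the limit of 3 reads that a count of 0 allows, so neither a fold nor a direction is given.

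The young neuron genes Sox11 and Dcx were measured in every library. Sox11, a Sox factor that switches on neuronal genes as progenitors leave the cycle, is ENSMUSG00000063632 at chr12:27334264-27342574 on the minus strand. Counts were 116.0, 100.9, 101.7 and 114.5 in WT and 124.9, 95.1, 118.0 and 120.2 in HAR123-KO libraries. In 3 HAR123-KO libraries Sox11 was above all WT libraries and in replicate 2 it was below all of them. The log2 fold change was 0.08 ± 0.13 (adjusted p = 0.958, DESeq2), with a 95% interval from 0.894 to 1.26 of WT, and it was 0.04 without HAR123-KO replicate 1 and 0.17 without HAR123-KO replicate 2.

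Dcx encodes doublecortin, a microtubule protein of migrating young neurons, and is ENSMUSG00000031285 at chrX:143855842-143933311 on the minus strand. WT libraries had 220.7, 227.5, 236.4 and 214.0 normalized counts and HAR123-KO libraries 220.1, 249.1, 244.8 and 211.6. The HAR123-KO libraries of replicates 2 and 3 were above all WT libraries and that of replicate 4 was below them. The log2 fold change of 0.04 ± 0.09 (adjusted p = 0.978, DESeq2) had a 95% interval from 0.915 to 1.16 of WT, the narrowest of the 10 genes on the log2 scale. Single libraries left out moved it between 0.0077 (without HAR123-KO replicate 2) and 0.08 (without HAR123-KO replicate 4).

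**Figure D2:**
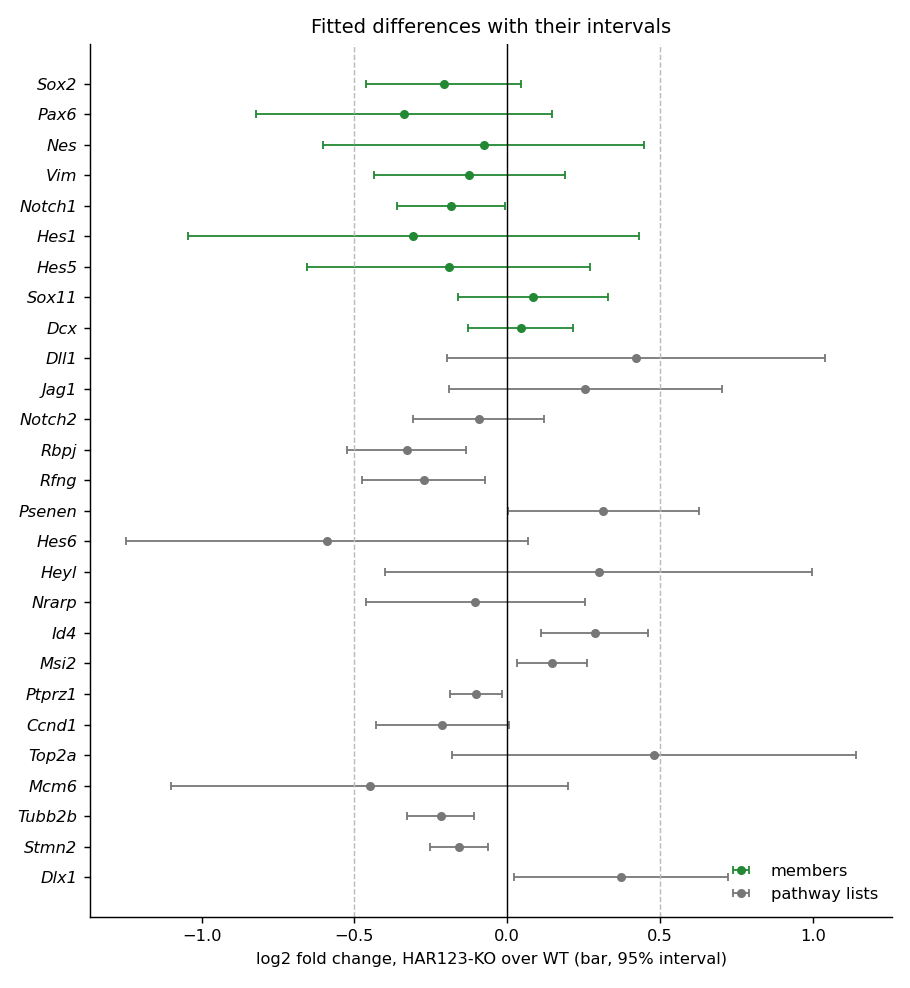
Fitted log2 fold changes of HAR123-KO over WT (horizontal axis) with 95% intervals for 9 of the 10 genes (green, labelled members; Eomes is left out because its counts are at the floor) and for 18 genes of the pathway lists (grey), with dashed lines at -0.5 and 0.5. Of the green intervals only that of Notch1 leaves out 0, and those of Sox2, Vim, Notch1, Sox11 and Dcx stay within the dashed lines, whereas those of Pax6, Nes, Hes1 and Hes5 reach past -0.5.

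To compare levels between genes, normalized counts were divided by exon length in kilobases. Sox2 was highest at 52.9 in WT and 45.6 in HAR123-KO libraries per kilobase, above 86.3% of protein-coding genes. Hes5 followed with 25.9 and 22.8, then Dcx (17.8 and 18.3), Notch1 (16.1 and 14.2), Vim (14.7 and 13.46) and Sox11 (13.02 and 13.8), and the ranges over 8 libraries of neighbours in this order overlapped from Hes5 down to Sox11. Hes1 (6.94 and 5.56), Nes (3.81 and 3.61) and Pax6 (2.85 and 2.25) formed a lower run whose neighbours also overlapped, near or below the middle of the coding genes (50.5%, 45.8% and 42.8% of them lower). Eomes was last at 0.180 and 0.302. The ranges were apart between Sox2 and Hes5, between Sox11 and Hes1, and between Pax6 and Eomes.

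**Figure D3:**
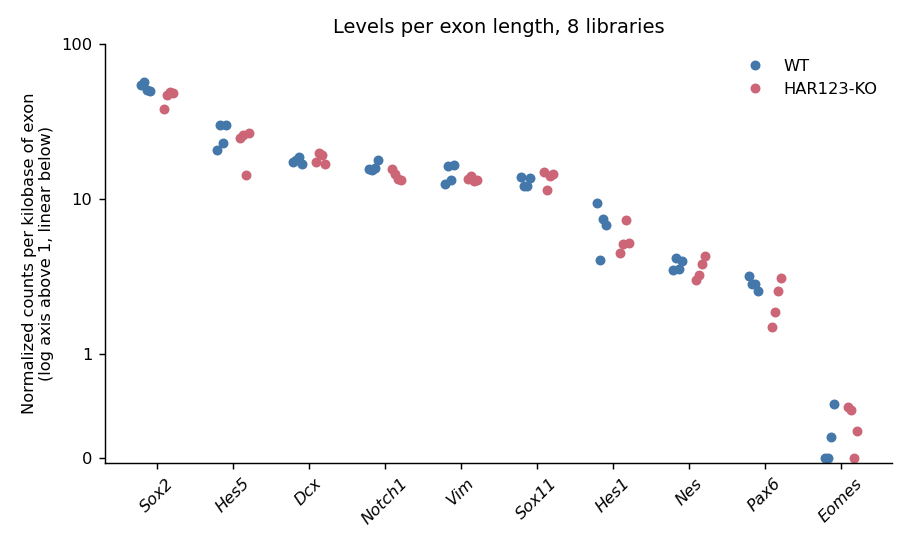
Normalized counts per kilobase of exon (vertical axis, log above 1 and linear below) of the 10 genes in order of their level, with 1 point per library, WT in blue and HAR123-KO in red. Sox2 stands alone at 38.3 to 57.1, a group from Hes5 to Sox11 lies between 11.4 and 30.2, and Eomes stays at or below 0.515.

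Other genes of the same stages put these levels in place, on the same scale per kilobase. The dividing-cell gene Mki67 stood at 3.17 in WT and 3.03 in HAR123-KO libraries, and Neurog2, the proneural factor of cortical progenitors, at 1.75 and 0.855. Neurog2 rests on 6, 4, 3 and 2 reads in WT and 3, 2, 3 and 0 reads in HAR123-KO libraries. It had no adjusted p, and no direction is read from it. Tbr1, which follows Eomes in the neuronal lineage and stays on in adult deep-layer neurons, stood at 99.3 and 94.8. Sox9, kept by adult astrocytes, had 38.1 and 32.2. Stmn1, a microtubule regulator of neurons, had 604 and 623. By their means Tbr1, Sox9 and Stmn1 were above Hes5 and Mki67 and Neurog2 below Nes, but the libraries of Sox9 overlapped those of Hes5 and those of Mki67 and Neurog2 overlapped those of Nes.

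Around the 10 genes, 99 further genes of Notch signalling, radial glia, cell division and neurogenesis were read from the same fit in 6 lists that share no gene. Of these, 64 received an adjusted p, 0 were past the limits and 1, Tubb2b, had an adjusted p under 0.05. An unadjusted p under 0.05 was found for 12 of 64, 5 higher and 7 lower in HAR123-KO libraries, beside 8.78% of all genes tested. Of these 64, all HAR123-KO libraries were above all WT libraries for 1 (Dlx1) and below them for 5 (Rbpj, Ptprz1, Tubb2b, Stmn2 and Sox9), beside 4.02% and 3.65% of all genes.

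Notch ligands and receptors had a median log2 fold change of -0.01 over the 6 of 10 genes tested, and none had an unadjusted p under 0.05. The ligands Dll1 (16.3 ± 4.83 in WT and 21.9 ± 6.84 in HAR123-KO, adjusted p = 0.805) and Jag1 (30.0 ± 2.48 and 35.7 ± 5.32, adjusted p = 0.875) and the receptor Notch2 (157 ± 17.3 and 148 ± 15.4, adjusted p = 0.926) did not pass the DESeq2 test. For Dll1 and Jag1 the fitted values lay on the higher side and for Notch2 on the lower side.

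Among 16 tested genes that modify, cut or act with Notch, 3 had an unadjusted p under 0.05. Rbpj, the DNA-binding partner of the cut receptor, had 204.9, 199.7, 205.0 and 169.0 normalized counts in WT libraries and 154.6, 160.7, 152.3 and 153.1 in HAR123-KO libraries. The HAR123-KO values were tightly grouped below all WT values, with WT replicate 4 nearest to them. Its log2 fold change was -0.33 ± 0.10, and its adjusted p of 0.0537 in DESeq2 missed the limit, was 0.0135 in edgeR and 0.0283 in limma-voom, and ran from 0.0193 to 0.334 as single libraries were left out. Rfng, a glycosyltransferase that tunes ligand choice, had 205 ± 16.2 counts in WT and 170 ± 25.0 in HAR123-KO libraries (adjusted p = 0.228). Psenen, a subunit of the gamma-secretase that cuts Notch, had 62.5 ± 8.26 and 77.8 ± 10.02 (adjusted p = 0.557, both DESeq2).

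Of 7 Hes, Hey and Nrarp genes listed as Notch targets, only 2 had counts enough for an adjusted p, with a median log2 fold change of -0.06. Nrarp, which feeds back on the Notch complex, had 52.4 ± 5.68 (WT) and 48.6 ± 3.92 (HAR123-KO) normalized counts (adjusted p = 0.971, DESeq2). Hes6, a relative of Hes1 that opposes it, favours neuronal differentiation and is not itself known as induced by Notch, had 20.8 ± 6.79 and 13.7 ± 4.76, and Heyl, a Notch-induced repressor, 12.2 ± 2.40 and 15.1 ± 2.42, both without an adjusted p.

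Radial glia and neural stem cell genes had a median of -0.02 over 18 tested, 3 with an unadjusted p under 0.05 on each side. The fitted values ran from -0.59 (Fabp7, adjusted p = 0.466) to 0.49 (Emx2, adjusted p = 0.422, both DESeq2). Id4, an inhibitor of basic helix-loop-helix factors, had 212 ± 19.6 (WT) and 258.6 ± 20.7 (HAR123-KO) normalized counts, with an adjusted p of 0.0668 in DESeq2, 0.0205 in edgeR and 0.0509 in limma-voom. Msi2, an RNA-binding protein of stem cells, had 499 ± 33.02 and 554 ± 11.8 (adjusted p = 0.317). Ptprz1, a receptor phosphatase of radial glia and oligodendrocyte progenitors, had 990 ± 20.9 and 922 ± 38.6 (adjusted p = 0.391, both DESeq2).

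Of the cell division genes, 11 of 20 had a mean under 10 normalized counts and 9 a mean of at least 10, and none of the 5 tested had an unadjusted p under 0.05. The G1 cyclin Ccnd1 had 154 ± 14.8 counts in WT and 133 ± 12.2 in HAR123-KO libraries (adjusted p = 0.586, DESeq2). The topoisomerase Top2a (13.1 and 18.2) and the replication helicase subunit Mcm6 (20.3 and 14.7) had no adjusted p.

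Neurogenic factors and young neuron genes had a median of -0.01 over 17 tested. Tubb2b, a tubulin of growing neurons, had 619, 621, 624 and 586 normalized counts in WT libraries and 526, 535, 491 and 559 in HAR123-KO libraries, with all HAR123-KO values below all WT values. It fell by 0.22 on the log2 scale (SE 0.06, adjusted p = 0.00940, DESeq2), less than the minimum fold, and its adjusted p rose to 0.0782, 0.0858 and 0.0579 without WT replicates 1, 2 and 3 and to 0.192 without HAR123-KO replicate 3. The near-identical Tubb2a can share its reads, so the value is uncertain. Stmn2, a microtubule regulator of growing axons, had 785 ± 24.2 and 704 ± 14.4 (adjusted p = 0.0572 in DESeq2, 0.0211 in edgeR and 0.0244 in limma-voom). Dlx1, a homeobox factor of interneurons, had 46.7 ± 5.53 and 60.7 ± 5.73 (adjusted p = 0.503, DESeq2).

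**Figure D4:**
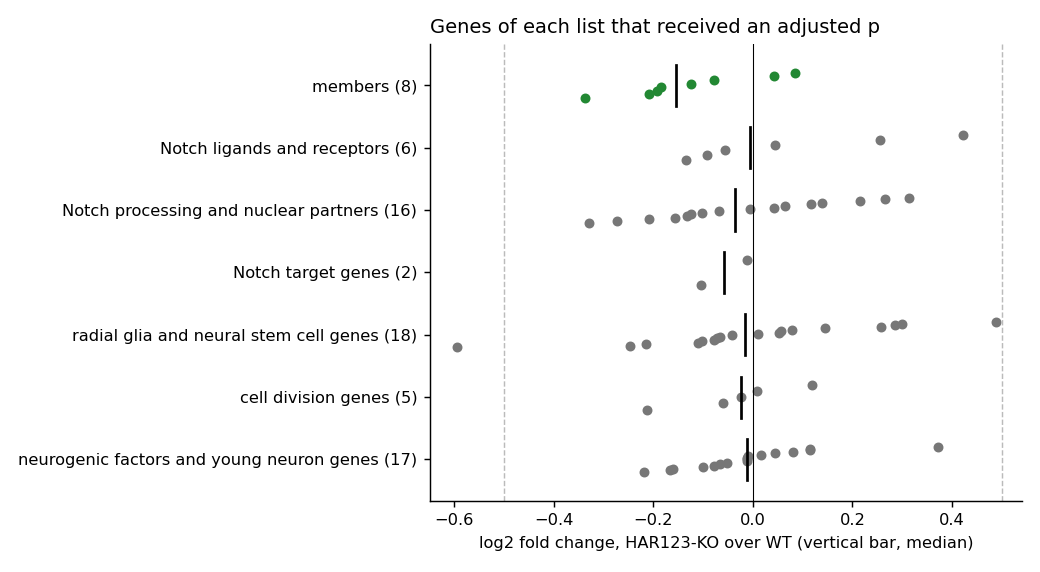
Log2 fold changes of HAR123-KO over WT (horizontal axis) of the genes with an adjusted p, 1 point per gene, for the 10 genes (green, labelled members; 8 tested) and the 6 pathway lists (grey; number tested in brackets), with the median as a bar and dashed lines at -0.5 and 0.5. The median of the green points is -0.15, and those of the grey lists lie between -0.06 and -0.01.

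Summed markers of some cell types that hold these genes, or that a dissection can include, did not overlap between genotypes. The 9 astrocyte markers, in a cell type that holds Sox2, Notch1 and Hes5, summed to 23335 to 24018 normalized counts in WT libraries and 21671 to 22317 in HAR123-KO libraries (93.3% of WT), with 7 of 9 fitted lower. Most of this sum is Slc1a2 (means of 18760 and 17454), which with Slc1a3 and Gja1 was lower at an adjusted p under 0.05 in DESeq2. The other markers did not pass, with Gfap at 267 and 296 counts (adjusted p = 0.558, DESeq2), Aqp4 at 90.2% of WT (adjusted p = 0.4999, DESeq2), Gjb6 at 93.7%, and S100b, Aldoc and Aldh1l1 at 100%, 99.5% and 98.7%. Endothelial markers, in a cell type that holds Vim and Notch1, summed to 501 to 554 and 405 to 422 (78.9% of WT), all 10 fitted lower. Of these, Vwf was past the limits (91.8 ± 4.96 and 49.4 ± 9.70), and the most abundant, Flt1, was not (127 ± 5.81 and 101 ± 2.005, adjusted p = 0.222, DESeq2). The 7 oligodendrocyte progenitor markers, in a cell type that holds Sox2, summed to 983 to 1027 and 1049 to 1109 (107%), with 4 fitted higher, 3 lower and 0 called. Olig1, the most abundant, was on the lower side (230 ± 19.7 and 219 ± 29.0, adjusted p = 0.950, DESeq2). The part of these cells in the values of Sox2, Notch1, Hes5 and Vim was not tested. No marker in these 3 lists was at 0 in all libraries.

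Striatal neuron markers summed to 4307 to 4448 normalized counts in WT libraries and 5714 to 5886 in HAR123-KO libraries (133%; 9 of 9 fitted higher, Penk, Drd2 and Adora2a past the limits, Pde10a the most abundant), and choroid plexus markers to 95.7 to 106 and 747 to 776 (753%; 11 of 11 fitted higher, Ttr and Kl past the limits). Most of the choroid plexus sum is Ttr (means of 68.2 in WT and 641 in HAR123-KO). Of the 11 choroid plexus markers, 7 had a mean under 10 normalized counts and only 2 received an adjusted p. Claustrum and layer 6b markers stood at 76.2% of WT (5 of 6 fitted lower, Nr4a2 past the limits). Meningeal fibroblast (88.1%), microglia (94.95%), mural (100%) and ependymal (105%) markers, led in abundance by Slc6a20a, Csf1r, Rgs5 and Foxj1, had no gene past the limits. The 10 markers of cortical neurons, the labelled tissue, were abundant in all libraries (26697 to 27194 in WT, 26365 to 26815 in HAR123-KO), Snap25 most of all, and Slc17a7 and Cux2 had an adjusted p under 0.05 on the lower side in DESeq2. The part of these tissue markers in the values of the 10 genes was not tested.

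**Figure D5:**
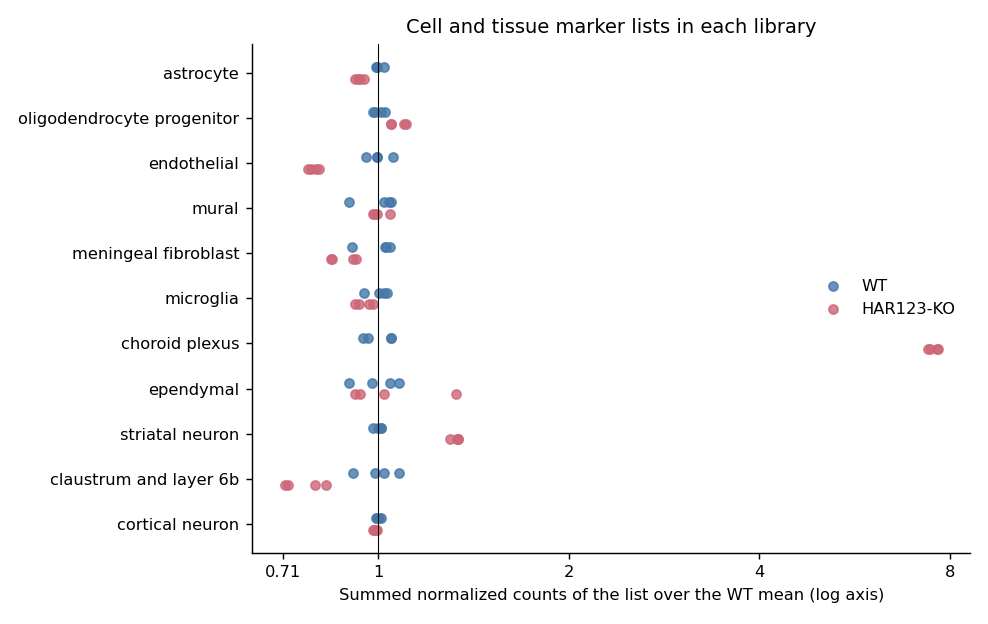
Summed normalized counts of 11 marker lists in each library, divided by the WT mean of the list (horizontal axis, log scale), WT in blue and HAR123-KO in red. The astrocyte sum, mostly Slc1a2, and the endothelial sum of all HAR123-KO libraries lie below WT (93.3% and 78.9% of the WT mean). The striatal sum and the choroid plexus sum, mostly Ttr, lie above (133% and 753%).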

How the data were processed

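Total RNA of 8 frontal cortex samples was depleted of ribosomal RNA and sequenced with a directional kit. The authors aligned reads with STAR 2.5.2b to GRCm38 and deposited raw counts per gene from featureCounts (Subread); use of strand and of multiply mapped reads was not given in the sources used here. All 55536 gene IDs matched GENCODE M21, which gave symbols; 0 columns and 0 rows were left unassigned. Counts were fitted with DESeq2 1.42.0 in R 4.3.3 (Wald test on genotype alone, median-of-ratios scaling, independent filter tuned to 0.1, Benjamini-Hochberg adjustment over all genes kept), tested first on simulated data. Normalized counts are counts over size factors. Limits were an adjusted p below 0.05 with a log2 fold change above 0.5 in size. Alternatives were edgeR 4.0.16 (quasi-likelihood), limma-voom (limma 3.58.1), other size factors, filters and limits, a replicate block and leaving out each library. Of total counts of 13528251 to 17051001, nuclear protein-coding genes held 2786320 to 3732172, and the precision for a gene rests on its own counts. Counting errors cover counting only, since reads carried no molecular tags.

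The members and lists were chosen with earlier results of these data known. Besides the 10 members, the text names in each pathway list the 3 genes with the smallest p among those with a mean of at least 10, in marker lists the genes past the limits or highest, and genes overlapping a member. Mki67, Neurog2, Tbr1, Sox9, Stmn1, Hey2, Fabp7, Emx2, Slc1a3, Gja1, Gfap, Aqp4, Gjb6, S100b, Aldoc, Aldh1l1, Slc17a7 and Cux2 were named after their values were seen. Promoter sequences are from RefSeq (GRCm38.p6).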

Additional observations from a re-analysis of the deposited data

Results flagged for a closer look

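In 56 groups of 4 libraries, 1 value stood far from the other 3 by Dixon's test in 4 groups, where chance gives about 2.8. Hes5 had 19.4 normalized counts in HAR123-KO replicate 3, whereas the other HAR123-KO libraries had 33.8 to 36.2. Rbpj had 169 in WT replicate 4, whereas the other WT libraries had 199.7 to 205. Nrarp had 60.8 in WT replicate 1, against 48.4 to 50.3. Tubb2b had 586 in WT replicate 4, against 619 to 624.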

How the results depend on the processing

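The count of members past the limits was 0 under every alternative run. Members with an unadjusted p under 0.05 numbered 1 (Notch1), 0 with a minimum of 10 counts in 4 libraries, and 0 to 1 with single libraries left out (0 without WT replicate 3 or 4 or HAR123-KO replicate 2, 3 or 4). Members that did not overlap between genotypes numbered 1 to 2 with single libraries left out (2 without WT replicate 2 or HAR123-KO replicate 1, 2 or 4). Pathway genes past the limits numbered 0, and 1 (Tubb2b) with no minimum fold. All genes past the limits numbered 38, against 73 in edgeR, 3 at the strict limits, 215 with no minimum fold, and 11 to 44 with single libraries left out (18 without WT replicate 3, 11 without HAR123-KO replicate 4). The labels do not say whether equal replicate numbers pair the libraries. Deviations of same-numbered libraries had correlations from -0.03 to 0.03 over 9280 genes, with the own number the best match in 1 of 4, which cannot exclude a weak pairing. With the number as a replicate block the counts were 9 for all genes and 0 for members with an unadjusted p under 0.05. The adjusted p of Tubb2b was then 0.99995 (DESeq2). Leaving Eomes aside, the other 9 members and the 18 pathway genes named by rule (27 genes) kept the sign of their fitted value in all 378 alternative values, though single libraries moved several values of both kinds by over 1.5 times. The cause of these changes was not tested. Low counts limit Hes1, Eomes and Nes, and low counts and the spread between libraries limit Pax6 and Hes5.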
